A study of Mus musculus with 97 samples.

Results

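The chromatin around transcription start sites of mouse embryonic stem (ES) cells was described from 28 deposited profiles, out of 188 in the authors' table of profiles around genomic sites. The 28 were all those that the table names as start sites centred on the start site. They are 14 per-base profiles and a smoothed version of each, and run from 1000 bases upstream to 1000 bases downstream. Of the 14, 6 came from MNase-seq (total MNase), 6 from MNase digestion followed by immunoprecipitation of histone H3 (MNase-H3) and 2 from ATAC-seq.

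All cells were of the E14tg2a line, called Tg2a in the labels, unmodified as far as the labels say and grown with serum and LIF. Mitotic cells for both MNase assays had 50 ng/ml nocodazole, a drug that blocks the spindle, for 4 to 5 h and were shaken off. Interphase cells for those assays were untreated and collected in parallel, so they were not selected for a cell-cycle stage. For ATAC-seq the labels give interphase and mitosis but name no drug or shake-off. MNase was used at concentrations written as 0.5, 16 and 128, without a unit. The fixative formaldehyde is named for MNase-H3 and not for total MNase or ATAC-seq. Each profile is the authors' single curve for an assay, a concentration and a state, for which the labels list 3 total MNase, 2 MNase-H3 or 2 ATAC-seq libraries, 34 in all. There is therefore 1 value per condition, no spread between replicates and no test of any difference below. How many start sites entered a profile, and which genes they belong to, is not given in the sources used here.

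Nucleosomes are lengths of DNA wrapped around histone proteins, and active start sites are known for a nucleosome-depleted region bordered by the -1 nucleosome upstream and the +1 nucleosome downstream, after which a regular array runs into the gene. MNase cuts the linker DNA between nucleosomes and trims what it frees, so that fragment midpoints pile up at nucleosome centres. Weak digestion releases loosely held particles, and strong digestion keeps mainly the stable ones. Selecting fragments that carry H3 separates nucleosomes from other protected particles. ATAC-seq reads open DNA instead, because its transposase inserts where no nucleosome is in the way. Transcription largely stops in mitosis, when chromosomes condense, and whether start sites keep this architecture is the question behind the comparison of the 2 states.

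To show what DNA lies in such a dip, the promoters of 4 genes of the pluripotent state are printed: Pou5f1, which encodes Oct4, Sox2, Nanog and Esrrb, all of them transcription factors. They were picked as illustrations, the profiles do not single them out, and whether they are among the averaged sites is not known. Each run holds the 200 bases before the most upstream RefSeq start, in build GRCm38.p6, which is not the mm9 build named in the submitters' processing notes. Capitals mark the 147 bases that would lie inside the dip, from its upstream edge at mid-height in the interphase total MNase profile at concentration 16 to the start site. Pou5f1 is at chr17:35505832-35506031, Sox2 at chr3:34649795-34649994, Nanog at chr6:122707289-122707488 and Esrrb at chr12:86360917-86361116, all on the plus strand.
Pou5f1: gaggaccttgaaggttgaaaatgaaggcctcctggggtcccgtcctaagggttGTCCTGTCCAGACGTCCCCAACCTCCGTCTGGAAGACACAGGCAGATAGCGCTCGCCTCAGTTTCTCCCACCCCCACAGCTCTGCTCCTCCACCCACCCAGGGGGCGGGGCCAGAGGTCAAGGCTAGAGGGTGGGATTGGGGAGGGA
Sox2: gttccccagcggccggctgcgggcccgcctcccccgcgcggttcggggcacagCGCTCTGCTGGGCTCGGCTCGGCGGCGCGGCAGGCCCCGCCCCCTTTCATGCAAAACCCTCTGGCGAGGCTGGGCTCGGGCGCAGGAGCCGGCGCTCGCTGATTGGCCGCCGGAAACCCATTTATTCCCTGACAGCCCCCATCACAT
Nanog: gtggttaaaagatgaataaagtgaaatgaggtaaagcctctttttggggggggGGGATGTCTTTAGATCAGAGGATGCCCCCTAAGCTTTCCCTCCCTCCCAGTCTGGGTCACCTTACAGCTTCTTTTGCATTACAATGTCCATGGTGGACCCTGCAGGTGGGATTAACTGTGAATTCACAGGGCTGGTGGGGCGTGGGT
Esrrb: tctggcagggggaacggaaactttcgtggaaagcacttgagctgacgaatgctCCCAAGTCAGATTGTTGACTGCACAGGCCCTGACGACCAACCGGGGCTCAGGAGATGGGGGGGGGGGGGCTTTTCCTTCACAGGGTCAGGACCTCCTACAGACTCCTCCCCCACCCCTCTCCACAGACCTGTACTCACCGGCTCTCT
The capital stretches are 65.3% G or C for Pou5f1, 69.4% for Sox2, 53.7% for Nanog and 62.6% for Esrrb. They hold 5, 15, 1 and 3 CG dinucleotides in that order. The 53 bases in lower case are 54.7%, 83.0%, 41.5% and 52.8% G or C, so the part in the dip was richer in G and C than the part outside it in Pou5f1, Nanog and Esrrb and poorer in Sox2. GGGCGG, the GC box, occurs on either strand in the runs of Pou5f1 and Sox2, as it does in 40.8% of RefSeq promoters of this length. CCAAT on either strand occurs in Pou5f1 and Sox2, and in 31.1% of such promoters. TATAAA occurs on neither strand in all 4 runs, and in 9.4% of such promoters.

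Across 21263 RefSeq start sites of 17492 protein-coding genes in the same table, G and C made up 51.6% of bases from 250 to 201 bases upstream and 59.8% in the last 50 bases before the start. CG dinucleotides went from 3.70 to 6.53 per 100 bases over the same distance. MNase favours DNA rich in A and T, so base composition and distance from the start change together here. The part of base composition in the profiles was not tested.

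The dip at the start site was present in all 12 MNase profiles, and in mitosis it became shallower, relative to its flanks, as digestion became stronger. Values are given as percent of the flank, the mean of the outermost 200 bases on each side, after a running mean over 31 bases. The ± is the error of that running mean from base-to-base scatter within 1 profile, and holds no biological spread. It also does not cover the search for the lowest point. In interphase total MNase the lowest value within the dip was 42.0% ± 0.919 of the flank at concentration 0.5, 44.5% ± 0.743 at 16 and 45.3% ± 1.31 at 128. In mitosis it was 45.2% ± 0.779, 46.8% ± 0.865 and 65.7% ± 1.41. As percent of the flank, the lowest interphase value thus hardly moved over the concentrations. The mitotic one was close to it at 0.5 and 16 and stood well above it at 128. At a fixed place, within 20 bases of the start, interphase total MNase did rise, from 43.3% at 0.5 and 44.8% at 16 to 53.6% at 128.

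MNase-H3 showed the same order with a deeper dip. Interphase values were 27.7% ± 1.85, 27.6% ± 1.50 and 31.5% ± 2.30 of the flank at 0.5, 16 and 128. Mitotic values were 30.6% ± 1.52, 39.7% ± 1.39 and 57.6% ± 2.51. The mitotic profile was already apart at 16, a concentration at which the total MNase profiles nearly met.

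Mitosis minus interphase was above 0 in 6 of 6 pairs, with a median of 7.68 percentage points. For total MNase the difference was 3.22 points at 0.5, 2.33 at 16 and 20.4 at 128, which is 2.67, 2.05 and 10.6 times the combined within-profile error. For MNase-H3 it was 2.80, 12.1 and 26.0 points, or 1.17, 5.94 and 7.64 times that error. The difference at 0.5 in both assays, and that of total MNase at 16, was thus of the order of the scatter within a profile. Taken as deposited, without division by the flank, the lowest mitotic value of total MNase was 1.36, 0.843 and 1.12 times the interphase one at 0.5, 16 and 128. At 16 this is the reverse of its direction after division. In MNase-H3 it was 1.26, 1.43 and 1.45 times the interphase one. In total MNase the larger difference at 128 than at 0.5 thus holds only after division. The depth below the flank that was left in mitosis was 62.6% of the interphase depth in total MNase at 128 and 62.0% in MNase-H3 at 128, against 95.8% in total MNase at 16 and 96.1% in MNase-H3 at 0.5.

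**Figure D1:**
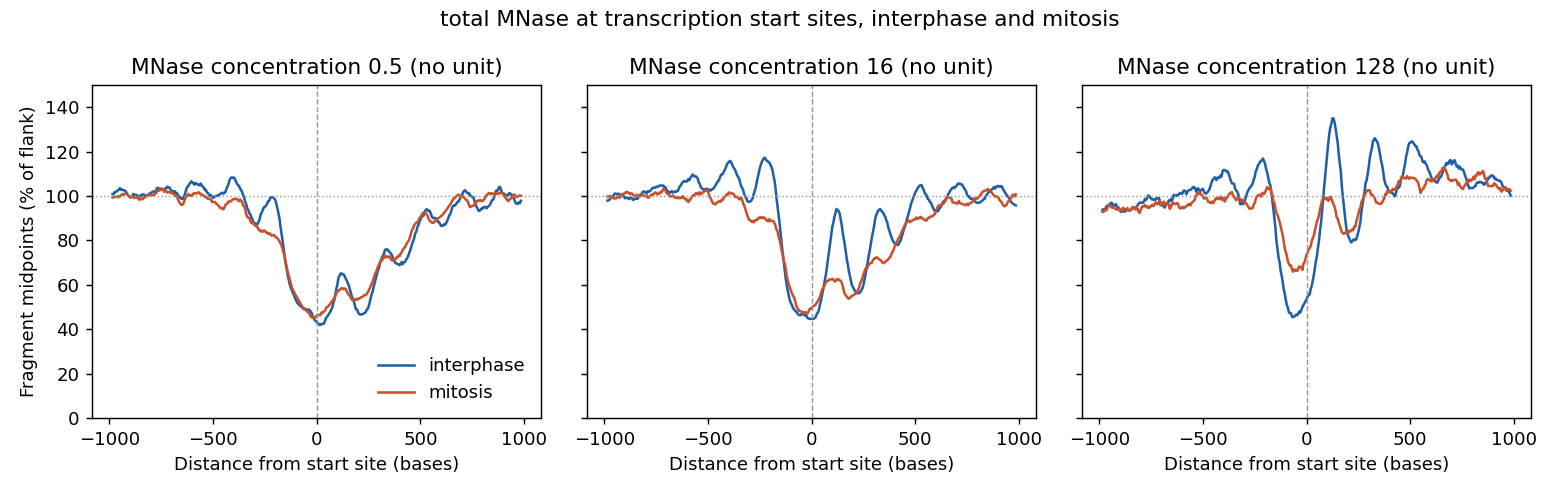
Fragment midpoints of total MNase as percent of the flank (vertical axis, running mean over 31 bases) against distance from the start site in bases, in a panel for each MNase concentration, with interphase in blue and mitosis in red. The wave of nucleosomes is tall in interphase and low in mitosis, and the mitotic dip is raised at concentration 128, with a lowest value of 65.7% against 45.3%.

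**Figure D2:**
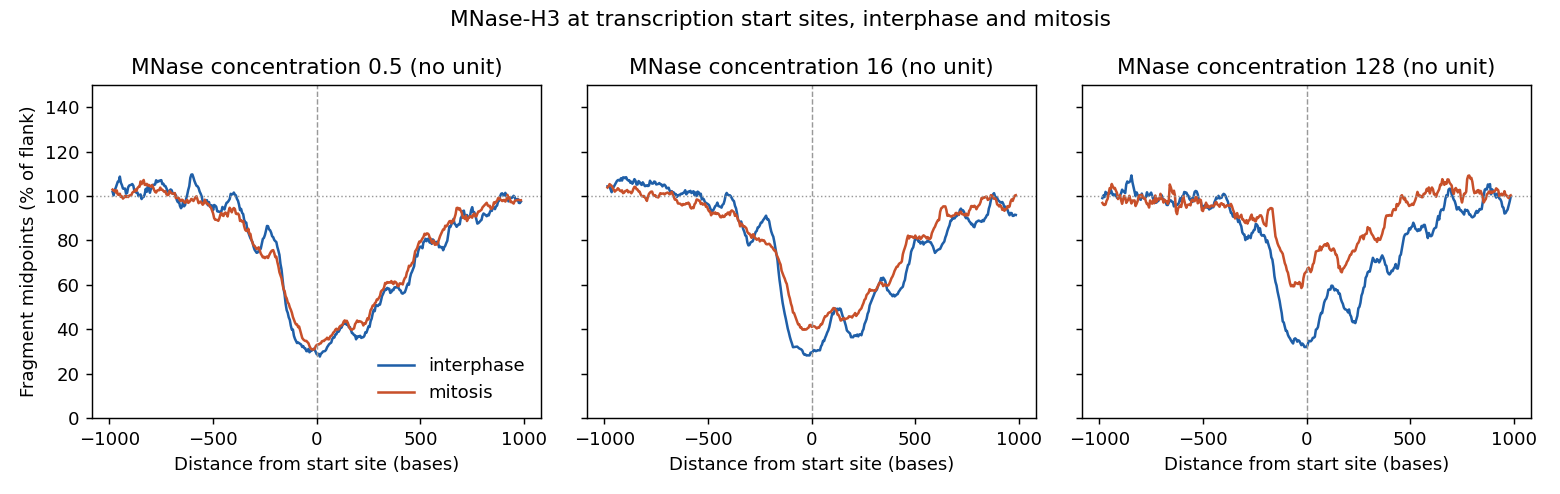
Fragment midpoints of MNase-H3, drawn as for total MNase. The dip is deeper than in total MNase, and the mitotic curve lies above the interphase curve at the start site at 16 (39.7% against 27.6%) and at 128 (57.6% against 31.5%).

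The dip had its lowest point close to the start site. In interphase it lay 15 bases downstream, 8 bases upstream and 64 bases upstream of the start in total MNase at 0.5, 16 and 128, and 15 bases downstream, 16 upstream and 2 upstream in MNase-H3. In mitosis it lay 24, 24 and 66 bases upstream in total MNase and 23, 27 and 27 bases upstream in MNase-H3. At 0.5 the lowest point was thus on the gene side in interphase and on the promoter side in mitosis, in both assays. The floor of the dip is nearly flat, and in the authors' smoothed profiles the mitotic points were 9, 31 and 43 bases upstream in total MNase and 17, 21 and 45 in MNase-H3, so these positions are rough.

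The +1 nucleosome, which borders the dip on the gene side, was a clear maximum in interphase. It was centred 117, 120 and 129 bases downstream of the start in total MNase at 0.5, 16 and 128, and 137, 112 and 124 bases downstream in MNase-H3. These interphase positions moved by no more than 16 bases over all settings tried. In mitosis the highest maximum between 50 and 300 bases was at 122 and 126 bases in total MNase at 0.5 and 16 and at 136 and 106 bases in MNase-H3. At 128 it was at 293 and 297 bases, which are the levelled +2 positions of the same mitotic profiles, and the profile stood higher there than at its first maximum.

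After the mean over about 1 nucleosome repeat (181 bases) was subtracted, to level such slopes, the mitotic +1 maximum was found 122, 94 and 92 bases downstream in total MNase and 133, 106 and 100 bases in MNase-H3. The interphase positions were unchanged by this step. Mitosis was closer to the start in 5 of 6 pairs, by 4 to 37 bases, and farther by 5 bases in total MNase at 0.5. The median shift was 15.0 bases towards the start with levelling, 5.50 bases away from it without levelling and 32.0 bases towards it in the authors' smoothed profiles, so its size and direction rest on how the maximum is found.

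As percent of the flank, the height of the +1 maximum grew with MNase concentration in both states. It grew less in mitosis than in interphase in total MNase, and more in mitosis in MNase-H3. The flank itself was lower at 128 than at 0.5 in both assays and both states. On the values as deposited, the maximum was therefore not higher at 128 than at 0.5 in any of these series. In total MNase the levelled maximum stood at 65.7%, 94.2% and 136% of the flank in interphase at 0.5, 16 and 128. In mitosis it stood at 58.6%, 62.8% and 99.8%. All 3 mitotic values were below the interphase value at the same concentration, though as deposited the mitotic maximum at 0.5 was the higher one. In MNase-H3 the heights were 43.4%, 49.7% and 60.1% in interphase and 44.3%, 49.8% and 78.8% in mitosis. They differed by less than the error of the running mean at 0.5 and 16, and at 128 the mitotic value was the higher one.

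How far the +1 maximum rose above the troughs beside it was smaller in mitosis in 6 of 6 pairs. Its levelled amplitude in total MNase was 21.2%, 41.7% and 64.5% of the flank in interphase and 8.40%, 12.5% and 25.6% in mitosis. In MNase-H3 it was 11.8%, 15.8% and 21.2% in interphase and 8.10%, 7.08% and 17.2% in mitosis. The trough after the +1 maximum, the first linker, lay 41.5% below the maximum in interphase total MNase at 128 and 17.1% below it in mitosis. At 16 those drops were 40.4% and 14.4%. In MNase-H3 at 128 they were 29.7% and 16.7%.

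The -1 nucleosome, on the promoter side, was less sharply placed. The highest maximum between 400 and 100 bases upstream was at 214, 225 and 217 bases in interphase total MNase at 0.5, 16 and 128. It was at 222 bases in interphase MNase-H3 at 16, but at 398 and 396 bases at 0.5 and 128, where the -2 maximum stands. In mitosis the same search gave 387, 399 and 191 bases in total MNase and 214, 378 and 171 bases in MNase-H3. Levelling placed it at 203, 198 and 208 bases upstream in interphase total MNase and at 194, 209 and 188 in MNase-H3. Mitotic levelled positions were 172, 177 and 175 in total MNase and 211, 174 and 166 in MNase-H3. They were closer to the start in 5 of 6 pairs, by 21 to 35 bases, and farther by 17 bases in MNase-H3 at 0.5. The median shift was 26.5 bases towards the start with levelling and 65.0 bases away from it without, in the main setting. There the mitotic maxima at 387, 399 and 378 bases stood near the levelled -2 positions of 368, 376 and 378 bases. Without levelling, running means over 11 and 61 bases and the authors' smoothed profiles gave 11.0, 3.00 and 11.0 bases towards the start. The last 2 had 5 and 4 pairs. The size of the shift, and in the main setting its direction, thus rest on how the maximum is found.

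The levelled distance from the -1 to the +1 maximum was 320, 318 and 337 bases in interphase total MNase and 294, 271 and 267 bases in mitosis. In MNase-H3 it was 331, 321 and 312 bases in interphase and 344, 280 and 266 bases in mitosis. It was shorter in mitosis in 5 of 6 pairs, with the dependence of the mitotic -1 position on levelling given above. Without levelling, the distance in interphase total MNase was 331, 345 and 346 bases.

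**Figure D3:**
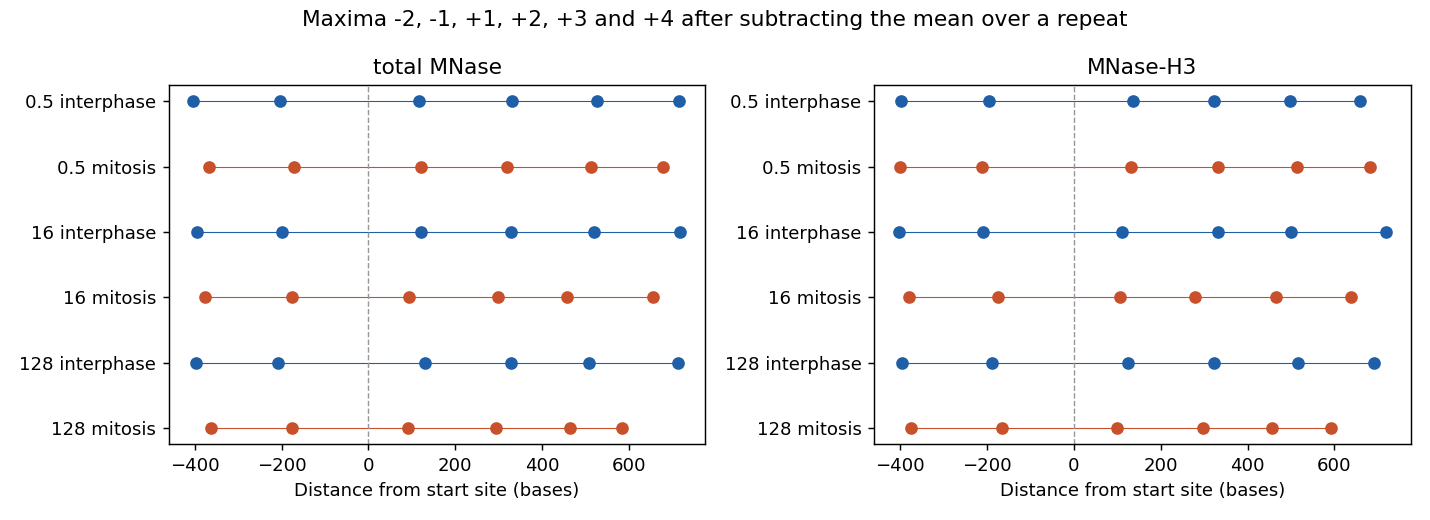
Positions of the -2 and -1 maxima and of the +1 to +4 maxima in bases from the start site, after levelling, in a line for each concentration and state, with interphase in blue and mitosis in red (left, total MNase; right, MNase-H3). Interphase +1 maxima sit between 112 and 137 bases, and mitotic ones between 92 and 133 bases.

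Downstream of the start, the array of nucleosomes kept a repeat of roughly the same length in interphase whatever the digestion. Levelled +2 maxima of interphase total MNase were 331, 327 and 327 bases downstream, +3 maxima 527, 519 and 508 bases, and +4 maxima 714, 716 and 713 bases. The slope of position on nucleosome number, from the unlevelled maxima, gave a spacing of 198, 201 and 187 bases in interphase total MNase and 198 to 200 bases at 0.5 and 16 and 185 bases at 128 in MNase-H3. The autocorrelation of the profile gave 194, 191 and 190 bases in total MNase and 191, 196 and 190 bases in MNase-H3. The interphase spacing thus lay between 185 and 201 bases by these measures. With levelled maxima the slope was 174 bases in MNase-H3 at 0.5, outside that range. The unlevelled +2 maximum of that profile stood at 389 bases, against 324 bases with levelling. In interphase MNase-H3 at 128 it stood at 368 against 322 bases. The slopes of these profiles thus rest on how the maximum is found.

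In mitosis the spacing came out shorter in 6 of 6 pairs by the unlevelled slope and by the autocorrelation, and the arrays it was read from were weak. The slope gave 188, 185 and 179 bases in total MNase and 181, 173 and 159 bases in MNase-H3. The autocorrelation gave 183, 183 and 189 bases in total MNase and 178, 181 and 128 bases in MNase-H3. The last value is far from any nucleosome repeat and comes from the profile with the largest scatter. At 128 both mitotic measures started at the maxima 293 and 297 bases downstream, which are the levelled +2 positions. The slopes of 179 and 159 bases are thus not read from the +1 to +4 nucleosomes. Started at the levelled +1 maximum, the mitotic autocorrelation at 128 gave 185 bases in total MNase and 148 bases in MNase-H3. The median difference was 16.4 bases by the slope, 12.0 bases by the autocorrelation and 5.60 bases in the authors' smoothed profiles, in which only 3 pairs had enough maxima. With levelled maxima the slope was shorter in mitosis in 5 of 6 pairs, and longer in MNase-H3 at 0.5, at 183 against 174 bases.

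The array itself was lower in mitosis. Ripple, the SD of the levelled profile from 50 to 800 bases downstream, was 5.13%, 8.16% and 11.3% of the flank in interphase total MNase at 0.5, 16 and 128, and 2.67%, 2.75% and 4.07% in mitosis. In MNase-H3 it was 3.33%, 4.66% and 5.00% in interphase and 2.62%, 2.54% and 3.26% in mitosis. Interphase ripple, as percent of the flank, grew with concentration in both assays, and all 6 mitotic values were below their interphase partners. On the values as deposited there was no growth from 0.5 to 128. Interphase ripple at 128 over that at 0.5 was then 1.00 in total MNase and 0.654 in MNase-H3. Over the 4 series of an assay and a state, this ratio had a median of 1.51 after division by the flank and 0.540 before it. The ratio does not cover concentration 16. Mitotic ripple was 52.1%, 33.8% and 35.9% of the interphase ripple in total MNase, and 78.9%, 54.6% and 65.2% in MNase-H3.

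Scatter within a profile also enters the ripple, and it was larger in MNase-H3 than in total MNase. The error of the running mean alone was 1.52%, 1.39% and 2.51% of the flank in the mitotic MNase-H3 profiles, against ripple of 2.62%, 2.54% and 3.26%. It was 0.779%, 0.865% and 1.41% in the mitotic total MNase profiles, against ripple of 2.67%, 2.75% and 4.07%. In the authors' smoothed profiles the mitotic MNase-H3 ripple was 0.855%, 1.20% and 1.76%, against 3.13%, 4.68% and 5.02% in interphase. The median of mitotic over interphase ripple was 0.533 with the running mean and 0.308 in the smoothed profiles, and the cause of that difference was not tested.

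Upstream of the start, ripple was also lower in mitosis in 6 of 6 pairs. Ripple from 800 to 100 bases upstream was 4.90%, 6.29% and 5.49% of the flank in interphase total MNase and 2.34%, 2.72% and 2.75% in mitosis. In MNase-H3 it was 5.38%, 4.93% and 3.57% in interphase and 2.58%, 1.85% and 2.88% in mitosis. Unlike the downstream ripple, the interphase upstream ripple did not grow with concentration throughout: in total MNase it was highest at 16, and in MNase-H3 it fell from 0.5 to 128.

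**Figure D4:**
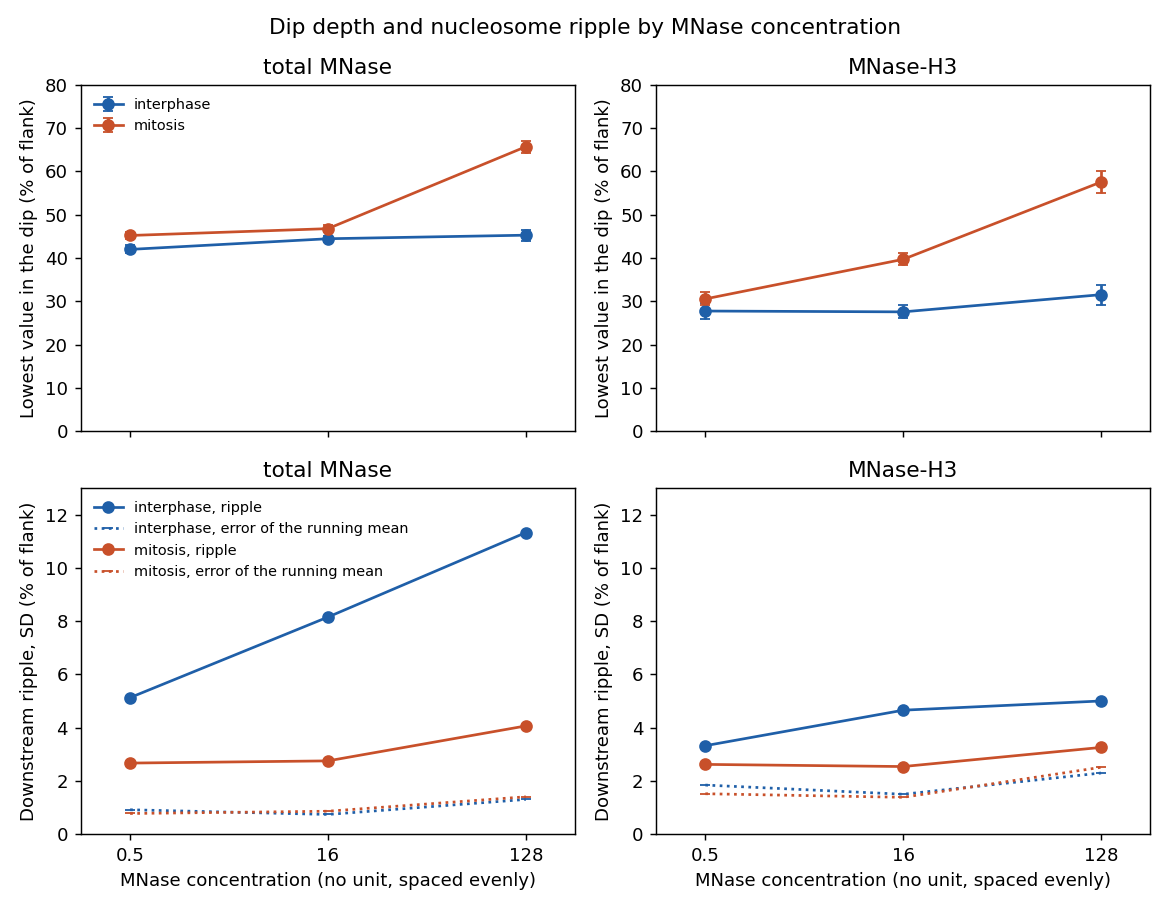
Lowest value in the dip (top, percent of the flank, bars show the error of the running mean) and downstream ripple (bottom, SD in percent of the flank, dotted lines show the error of the running mean) against MNase concentration, which has no unit and is spaced evenly, for interphase (blue) and mitosis (red) in total MNase (left) and MNase-H3 (right). The mitotic dip rises to 65.7% and 57.6% at 128, and mitotic ripple stays between 2.54% and 4.07%.

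The gene side of the start was poorer in fragments than the promoter side at most digestions. Over the 500 bases downstream, interphase total MNase averaged 61.8% of the flank at 0.5, 76.0% at 16 and 101% at 128, and over the 500 bases upstream 83.4%, 90.9% and 90.5%. Relative to the flank, the downstream side thus filled with digestion and passed the upstream side at 128. MNase-H3 averaged 47.2%, 49.2% and 58.6% downstream and 70.7%, 72.5% and 73.9% upstream in interphase, so its downstream side stayed lower throughout. In mitosis the downstream means were 63.8%, 67.3% and 95.3% in total MNase and 50.7%, 55.7% and 80.9% in MNase-H3.

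The share of fragments that carried H3, relative to the flank, was lowest at the +1 position of interphase cells. From 100 to 140 bases downstream, the MNase-H3 level divided by the total MNase level was 0.639, 0.533 and 0.447 at 0.5, 16 and 128 in interphase. It was 0.729, 0.761 and 0.772 in mitosis. At the -1 position, 230 to 190 bases upstream, it was 0.823, 0.768 and 0.713 in interphase and 0.905, 0.876 and 0.886 in mitosis. At the start site itself, within 20 bases, it was 0.676, 0.655 and 0.616 in interphase and 0.709, 0.837 and 0.884 in mitosis.

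The ratio was thus higher in mitosis at each of these 3 places and all 3 concentrations, and in interphase it fell with concentration at all 3. In the 100 bases before the start the interphase ratio did not fall steadily, at 0.657, 0.645 and 0.723, and the mitotic ratio was 0.725, 0.857 and 0.906. At the +3 position, 500 to 540 bases downstream, the ratio was 0.864, 0.763 and 0.704 in interphase and 0.893, 0.895 and 0.897 in mitosis. Both levels were divided by their own flank first, so a ratio below 1 says that H3 fragments were fewer relative to total fragments than at the flank, not how many particles lacked H3. Fixation is named for one assay and not for the other, and its part in the ratio cannot be told apart from that of H3.

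ATAC-seq signal peaked over the dip and was higher in mitosis. The interphase peak was 4.97 times the flank, 39 bases upstream of the start, and the mitotic peak 6.34 times the flank, 53 bases upstream. The error of the running mean was 2.18% and 2.63% of the flank. The ratio of mitosis to interphase was 1.27 with that division, 1.40 on the values as deposited and 1.06 when each profile was divided by its own mean. The mitotic profile was thus the higher one on each of the 3 scales, and by how much depends on the scale. The flanks of both ATAC-seq profiles still slope 800 to 1000 bases from the start, so they are no level background.

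The peak was slightly narrower in mitosis, with a full width at mid-height of 275 bases against 285 bases. Its edges at mid-height lay 198 bases upstream and 87 bases downstream in interphase, and 199 and 76 bases in mitosis. The upstream edge was thus in the same place, and the downstream edge was 11 bases closer to the start in mitosis. In interphase total MNase the downstream edge of the dip, at mid-height towards the +1 maximum, was 87, 76 and 73 bases from the start.

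A second, lower ATAC-seq maximum stood 230 bases downstream in interphase and 232 bases in mitosis, at 2.49 and 3.37 times the flank. In interphase total MNase the first linker lay 216, 221 and 215 bases downstream, close to this second maximum. The trough between the ATAC-seq maxima was 171 bases downstream in interphase and 155 in mitosis, at 2.33 and 3.11 times the flank. The second maximum stood 1.07 times above its trough in interphase and 1.08 times in mitosis. In mitosis the levelled first linker lay 238, 180 and 177 bases downstream in total MNase and 233, 203 and 169 bases in MNase-H3. It was thus close to the ATAC-seq maximum at 0.5 and closer to the start than it at 16 and 128. Without levelling the mitotic linker at 0.5 lay at 197 bases in total MNase and 177 in MNase-H3, so that closeness rests on levelling. The interphase linkers above are unlevelled, and levelling put them at 218, 221 and 212 bases.

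On the deposited values the ratio of mitosis to interphase was 1.10 in the outermost 200 bases on both sides, 1.39 in the 200 bases before the start and 1.46 from 200 to 399 bases downstream. Its largest value was 1.51, 214 bases downstream, at the first linker, and not at the peak. In the per-base profiles, the base at the start site itself stood 1.35 times above the mean of the 10 bases on each side in interphase and 1.34 times in mitosis. In the RefSeq table, 54.5% of protein-coding starts have a pyrimidine just before the start and a purine at it, against 21.1% with the same step 100 bases upstream. Whether that sequence has a part in the ATAC-seq value at the start base was not tested.

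**Figure D5:**
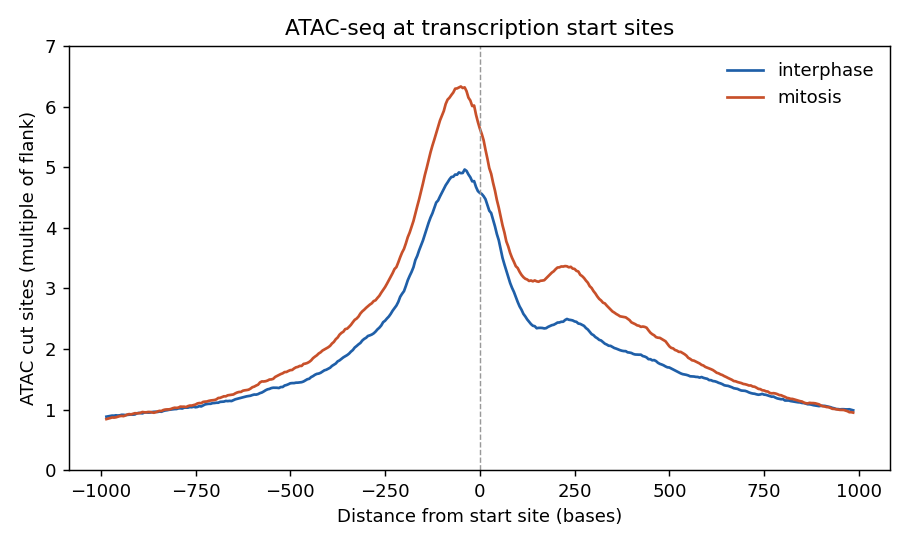
ATAC-seq cut sites as a multiple of the flank (vertical axis, running mean over 31 bases) against distance from the start site in bases, for interphase (blue) and mitosis (red). The mitotic peak reaches 6.34 and the interphase peak 4.97, and a second maximum stands about 230 bases downstream in both.

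Start sites stood apart from the other sites in the table in the direction of the ATAC-seq difference. Within 100 bases of the centre, ATAC-seq signal over the flank went from 4.28 in interphase to 5.25 in mitosis at start sites. At summits of EP300, a coactivator found at enhancers, it went from 3.21 to 2.39. At Oct4/Sox2 summits it went from 2.80 to 1.59, at summits of Esrrb sites that the authors list as lost in mitosis from 2.53 to 1.58, and at those they list as bookmarked from 1.69 to 1.37. Start sites were thus the only one of these 5 classes with a higher value in mitosis, and with 1 profile per state this could not be tested.

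In MNase-H3, start sites had the lowest levels of the classes compared here. At concentration 128, MNase-H3 within 100 bases of the centre went from 38.5% to 67.6% of the flank at start sites, from 79.6% to 122% at EP300 summits and from 82.8% to 107% at Oct4/Sox2 motifs. All 3 classes were higher in mitosis, but start sites stayed below their flank while the other 2 rose above it. At concentration 0.5 start sites went from 32.0% to 35.7%, EP300 summits from 65.7% to 74.8% and Oct4/Sox2 motifs from 101% to 111%.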

How the data were processed

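The profile values were made by the authors from ATAC-seq cut sites and MNase fragment midpoints, per the file headers, and their scale is not stated. Which fragment lengths were kept and how libraries were combined is not given in the sources used here. The submitters' processing notes name Bowtie2, MACS2, STAR, RSEM and the mm9 build, without versions or roles. Depth is unknown, so no counting interval can be given.

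From the deposited values, a running mean over 31 bases was taken and divided by the mean of the outermost 200 bases on each side. Maxima were local maxima within 40 bases. Levelled maxima had a running mean over 181 bases subtracted, a choice made after the profiles were seen. The dip was searched from 200 bases upstream to 50 downstream, the +1 maximum from 50 to 300 bases downstream and the -1 maximum from 400 to 100 upstream. The levelled +1 position was checked on simulated profiles, and the spacing from the autocorrelation only on those with less noise. The other measures were not checked in this way. Errors are the base-to-base scatter around the running mean divided by the square root of its width, and describe precision within 1 profile. With 1 pooled profile per condition no test was made. Python 3 with numpy and pandas was used. Members, measures and the 4 illustrated promoters were chosen with earlier results of these data known. RefSeq promoters (GRCm38.p6) were matched by symbol, and all 4 matched. The RNA-seq and ChIP-seq libraries were not analysed here.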

Additional observations from a re-analysis of the deposited data

Results flagged for a closer look

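The level of the outer flanks, as deposited, moved in opposite directions with weak and strong digestion. In total MNase, mitosis over interphase was 1.26 at concentration 0.5, 0.801 at 16 and 0.774 at 128. In MNase-H3 it was 1.15 at 0.5, 0.993 at 16 and 0.796 at 128. The values stand out because mitosis was the higher state at 0.5 and the lower one at 128 in both assays. The difference between concentrations was not tested, since each value is a ratio of 2 single profiles, and the scale of the deposited values is not stated.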

How the results depend on the processing

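No paired analysis was possible because each condition has 1 pooled profile, so fits with a replicate block and with a replicate left out were not run. Over the 12 MNase profiles, mitosis over interphase at the lowest point of the dip had a median of 1.27, and the 6 alternatives gave 1.24 to 1.31 with the same direction. In single values, the total MNase dip at 16 gave 0.843 without division by the flank, the reverse of its main direction. At 0.5 and 128 it gave 1.36 and 1.12 undivided, against 1.08 and 1.45 in the main setting. Without that division, ripple at 128 over 0.5 had a median of 0.540 instead of 1.51, and in mitotic total MNase it was 0.425. The +1 height of MNase-H3 over total MNase had a median of 0.709, and 0.407 without the division. For the ATAC-seq peak, mitosis over interphase was 1.27. It was 1.26 with a running mean over 11 bases, 1.40 undivided, 1.06 divided by the profile mean, 1.23 as the mean within 100 bases and 1.30 in the smoothed profile. The median spacing difference was -16.4 bases, and -5.60 bases in the smoothed profiles, where 3 pairs gave a value. The median +1 shift ran from 32.0 bases towards the start to 41.5 bases away from it over all settings. Its sign is thus not stable. The 32.0 bases came from 5 pairs. In the main setting, 5.50 bases away from the start, the mitotic maxima at 128 were those at 293 and 297 bases, the levelled +2 positions. The median -1 shift ran from 65.0 bases away from the start to 26.5 bases towards it. It was away from the start in the main setting only. Of 116 single differences between mitosis and interphase in position or spacing under alternatives, 52 were counted as moved, with a tolerance of 10 bases. The causes of these changes were not tested. Unknown depth and missing replicates limit every value.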

Other observations

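In total MNase the base at the start site stayed near its neighbours. It was at 40.8% of the flank in interphase total MNase at 0.5, against a mean of 42.6% over the 10 bases on each side, at 45.0% against 44.2% at 16 and at 53.9% against 54.0% at 128. In mitosis the values were 49.7% against 45.7%, 52.9% against 50.3% and 76.5% against 73.4%. Scatter of single bases was 4.14% to 7.83% of the flank in these profiles, so none of the differences exceeded it. In MNase-H3 at 16 in interphase, the base at the start site was at 51.9% of the flank against 29.3% over its neighbours, a difference larger than the single-base scatter of 8.36%. The other interphase MNase-H3 values were 20.6% against 29.5% at 0.5 and 40.9% against 31.03% at 128. In mitosis they were 33.4% against 33.0%, 36.7% against 42.6% and 77.6% against 70.0%. In these 5 profiles the difference was within the scatter of 7.72% to 14.0%.

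Total MNase first reached 90% of the flank 503 bases downstream of the start in interphase at 0.5, 108 bases downstream at 16 and 72 bases downstream at 128. In mitosis it did so at 496, 503 and 57 bases. In MNase-H3 it took 694, 679 and 632 bases in interphase and 663, 616 and 383 bases in mitosis. The H3 profiles thus first reached this level farther into the gene than total MNase at all 3 concentrations, in both states. The total MNase positions of 108, 72 and 57 bases lie on the rise to the +1 maximum. From 200 to 240 bases downstream, in the first linker, those 3 profiles averaged 56.5%, 80.0% and 84.8% of the flank. These positions are therefore not the reach of the depletion.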
